A study of Mus musculus with 10 samples.

Results

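The comparison described here sets DBA/2 mouse testis cells after 3 weeks of culture against such cells after 2 weeks. Its members were chosen by sample title and comprise 4 of the 10 arrays of the series, 2 arrays for each week. All cultured groups started from adult DBA/2 testis cells that were separated magnetically by their CD9, a tetraspanin on the surface of germline stem cells that is found on other testis cells too. They grew in an Iscove-type medium that held GDNF (rat, at 15 ng/ml), FGF2 (human, at 10 ng/ml) and 1% fetal bovine serum. The other 6 arrays measured the sorted cells at 0 weeks, cells after 1 week of culture, and established GS cells (germline stem cells, a long-term culture of spermatogonial stem cells) of the same strain, each on 2 arrays. No genotype change, transgene or drug is named for any group. Whether the replicates were separate animals or cultures is not stated, and the p-values then speak only of the spread among these particular samples, part of which can be technical.

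Spermatogonial stem cells either renew themselves or begin the differentiation that leads through meiosis to sperm. Their self-renewal in culture depends on GDNF, which binds a co-receptor encoded by Gfra1 and signals through the receptor tyrosine kinase RET, and on FGF2, which acts through the MEK and ERK kinases. Both signals raise a set of transcription factors that includes Etv5 and Bcl6b, and ERK activity also induces its own feedback inhibitors of the Sprouty, Spred and dual-specificity phosphatase families.

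The values are linear array signals. The tests used the log2 signal of 20174 genes in 1 model of all 10 arrays, fitted with limma, with Benjamini-Hochberg adjustment across the whole gene table, and an adjusted p under 0.05 passed. A change is the mean log2 signal at 3 weeks minus that at 2 weeks, given ± SE with 2 arrays per group. Each result was recomputed under 13 other settings, so that a gene could pass in up to 14 settings. The genes given with a change below passed in all 14 unless another number stands beside them or they are said not to have passed. The number of arrays limits the precision, and the files carry no background level.

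The 2 culture times were close to each other. Across genes, which are not independent replicates, the log2 signals of the 2 week arrays correlated with r = 0.998 and those of the 3 week arrays with r = 0.992. Arrays of 2 and 3 weeks correlated with r = 0.975 to 0.984. The 2 week arrays were about as close to GS cells (r = 0.976 to 0.980), and the 3 week arrays were less so (r = 0.941 to 0.952). The median signal was 116.8 on both 2 week arrays and 125.3 and 120.2 on the 3 week arrays, and the lower quartile was 66.1 on both 2 week arrays and 73.7 and 70.6 on the 3 week arrays. The germ cell markers Ddx4, Dazl, Zbtb16, Gfra1, Ret and Sall4 had a geometric mean signal of 1511 and 1478 at 2 weeks and 1178 and 1210 at 3 weeks, far above the median of the arrays, so the label of cultured germ cells was met at both times. Markers of fibroblasts and mesenchyme were also detected, with a geometric mean of 383 and 382 at 2 weeks and 226 and 274 at 3 weeks over 10 genes. The markers of Sertoli cells (114 and 116 against 119 and 119), Leydig cells (66.2 and 64.2 against 71.0 and 68.8), macrophages, endothelial cells, lymphocytes and spermatids all lay near or below the median signal of the arrays. Those of peritubular and smooth muscle cells read 146 and 148 at 2 weeks, above it, and 119 and 137 at 3 weeks.

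Of 20174 genes, 4875 (24.2%) differed between 3 and 2 weeks, 1555 higher (7.71%) and 3320 lower (16.5%) at 3 weeks. For every one of these genes the 4 arrays fell into 2 groups without overlap, a pattern that 71.5% of all genes showed. Changes of at least 2-fold were few, with 11 genes higher (0.0545%) and 132 lower (0.654%). The median change of all genes was 0.03. The split between directions depended on the scaling of the arrays: 31.9% of the changed genes were higher with the signals as deposited, 49.5% after quantile normalization (1888 higher, 9.36% of all genes, and 1926 lower, 9.55%) and 54.8% after cyclic loess (1553 higher, 7.7%, and 1281 lower, 6.35%).

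The change moved with signal strength. Genes were split into 10 bins of equal size by their mean log2 signal over all 10 arrays. The median change in the 4 dimmest bins was 0.08, 0.13, 0.13 and 0.11, and 996 genes rose there. In the 3 brightest bins it was -0.19, -0.26 and -0.27, and 2625 of the 3320 falls lay there. After quantile normalization or cyclic loess, each bin had a median between -0.02 and 0.05. Whether this shift came from the cells or from the arrays was not tested, and many of the counts below are therefore given after these scalings too. Each list count below is to be read beside 16.5% lower and 7.71% higher among all genes. Some lists share members, so their counts are not independent of each other.

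**Figure D1:**
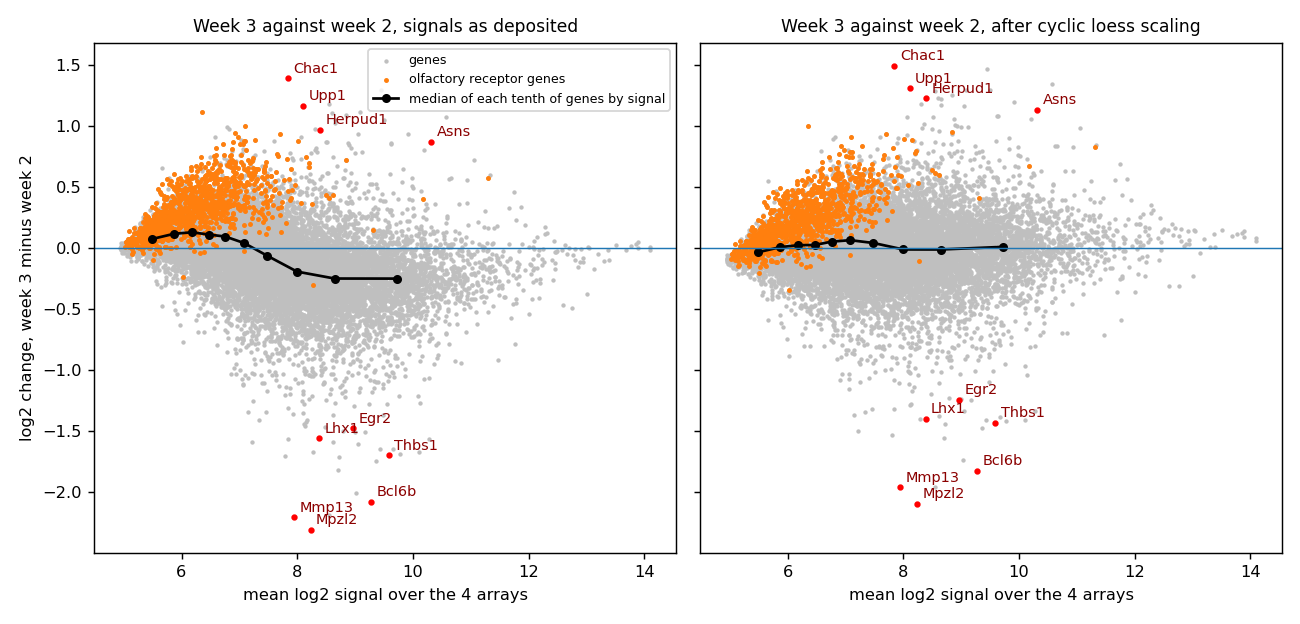
Change from 2 to 3 weeks (log2) against mean log2 signal of the 4 arrays for each gene, as deposited (left) and after cyclic loess scaling (right), with the median of each of 10 bins of genes by signal as a black line. The bins of the line go by the signal of these 4 arrays. On the left the line runs from above 0 at low signal to below 0 at high signal, and on the right it stays near 0. Bcl6b, Mpzl2 and Mmp13 lie far below the line and Chac1 and Upp1 far above it in both panels.

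Transcription factors that GDNF induces in spermatogonia were lower at 3 weeks. Of 9 such genes, 6 fell, 1 rose and 2 did not pass, with a median change of -0.62, beside 16.5% lower and 7.71% higher among all genes, and the count was the same under quantile normalization and cyclic loess. Bcl6b, a transcriptional repressor needed for self-renewal, read 1267 and 1275 at 2 weeks and 267 and 340 at 3 weeks. The groups were far apart, and Bcl6b fell by 2.08 ± 0.11 (limma, adjusted p = 2.6e-05), the 4th largest fall among genes above the median signal. Here and below, such a ranking takes genes that passed and whose mean at 2 or at 3 weeks was above 123.2, the median over all genes and arrays. In a bulk sample such as these, fewer cells of a type and less RNA per cell cannot be told apart.

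Lhx1, a LIM homeodomain factor, read 582 and 563 at 2 weeks and 195 and 194 at 3 weeks. Both 3 week arrays lay at about the same level, well below the 2 week arrays (-1.56 ± 0.10, limma, adjusted p = 4.7e-05). Etv5, an ETS factor downstream of both GDNF and FGF2, moved less, from 791 and 774 to 508 and 513 (-0.62 ± 0.07). T, which encodes brachyury, and Eomes, both T-box factors, fell from 205 and 190 to 92.4 and 88.5 (-1.13 ± 0.11) and from 213 and 207 to 107 and 116 (-0.91 ± 0.14). Their 3 week signals lay below the median of the arrays. Pou3f1, a POU-domain factor, fell by 0.38 ± 0.07 and passed in 11 of 14 settings. Nanos2 and Id4, 2 further regulators of the undifferentiated state, did not pass (-0.21 ± 0.09 and -0.06 ± 0.13, limma, adjusted p = 0.12 and 0.77). Mycn, the MYC family member of these cells, went the other way, from 242 on both arrays to 386 and 351 (0.60 ± 0.09).

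Among the GDNF receptor genes the ligand-binding and the signalling subunit were both lower. Gfra1 read 1004 and 1012 at 2 weeks and 487 and 541 at 3 weeks, and Ret read 1450 and 1405 against 887 and 802. Neither gene's groups overlapped, as for every gene that passed, with changes of -0.97 ± 0.08 and -0.76 ± 0.07 (limma, adjusted p = 0.00013 and 0.00024). Gfra3, the co-receptor of another GDNF family ligand, was dim and rose by 0.43 ± 0.11 in 11 of 14 settings. Gfra2, Gfra4 and Ncam1 did not pass.

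The list of FGF receptors, ERK targets and ERK feedback inhibitors held 19 measured genes, of which 12 fell, 0 rose and 7 did not pass, with a median of -0.62. The count was 13 after quantile normalization and 12 after cyclic loess. Ccnd1, the D-type cyclin that links ERK to the cell cycle, read 855 and 873 at 2 weeks and 324 and 287 at 3 weeks (-1.50 ± 0.09, limma, adjusted p = 4.4e-05). The feedback inhibitors Spry4 and Spred2 read 702 and 679 against 279 and 316, and 814 and 814 against 343 and 392. Both were lower on each 3 week array than on either 2 week array, as was every gene that passed and fell (-1.22 ± 0.09 and -1.15 ± 0.08). The ERK phosphatase genes moved the same way: Dusp5 fell by 1.09 ± 0.10, and Dusp6, read at 835 and 834 against 410 and 450, fell by 0.96 ± 0.09. The receptor genes Fgfr1, Fgfr2, Fgfr3 and Fgfr4 did not pass, and neither did Spry2, Etv1 and Myc.

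Immediate early genes, which respond to growth factor signals within minutes, showed the most negative median of the 49 lists, -0.69. Of 19 measured, 11 fell, 0 rose and 8 did not pass, against 14 falls after quantile normalization and 12 after cyclic loess. Egr2, a zinc finger factor, read 864 and 801 at 2 weeks and 298 and 300.05 at 3 weeks, a change of -1.48 ± 0.11 (limma, adjusted p = 9e-05). Egr3 fell from 581 and 593 to 279.8 and 279 (-1.07 ± 0.10), and Egr1 from 1315 and 1337 to 725 and 726 (-0.87 ± 0.08). Genes of the AP-1 factors followed, with Junb at 286 and 289 against 139 and 133 (-1.08 ± 0.09), Fosb at 429 and 428 against 229 and 205 (-0.98 ± 0.11), and Fos at -0.78 ± 0.15 in 13 of 14 settings. Dusp1, which dephosphorylates MAP kinases, fell by 1.15 ± 0.10. Jun, Myc, Klf4, Atf3, Ier2, Ier3, Fosl2 and Nr4a2 did not pass.

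**Figure D2:**
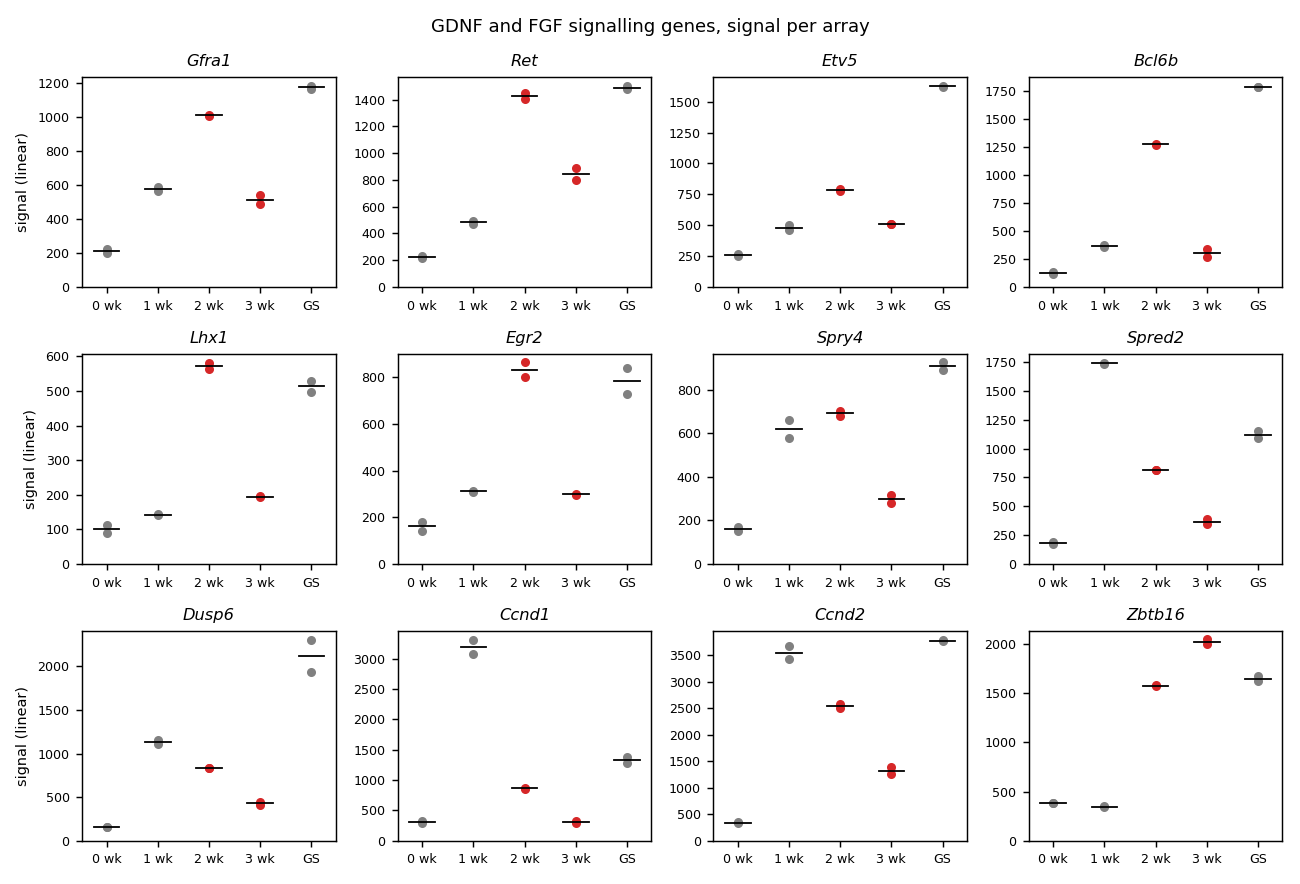
Signal of 12 genes of GDNF and FGF signalling on each of the 10 arrays (points) with the group mean (line), at 0, 1, 2 and 3 weeks and in GS cells. The 3 week points lie below the 2 week points in 11 panels and above them for Zbtb16, and the GS cell points of Gfra1, Etv5, Bcl6b and Spry4 lie above those of both weeks.

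The levels of Bcl6b, Gfra1, Ret and Lhx1 in established GS cells stood nearer to those at 2 than at 3 weeks. Bcl6b read 124 and 365 on average at 0 and 1 week and 1787 in GS cells, Gfra1 read 1175, Ret 1491 and Lhx1 514 in GS cells. The 3 week level of Bcl6b, 303 on average, was thus below its 1 week level, and that of Egr2, 299, was close to its 1 week level of 312. Ccnd1 differed in pattern, since its level had been highest at 1 week (3194) and GS cells read 1328. The GS cell levels are given beside the others only, because a comparison of GS cells with 3 weeks uses the same 3 week arrays.

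Not all regulators of undifferentiated spermatogonia fell. Their list shares members with others, among them Gfra1, Ret, Etv5, Bcl6b, Lhx1, Pou3f1, T, Eomes and Dusp6 above and Sohlh1 and Sall4 below. Of 32 genes on that list, 16 fell, 5 rose and 11 did not pass, with a median of -0.31, and the falls numbered 14 after quantile normalization, 10 after cyclic loess and 11 without the 1st 3 week or the 2nd 2 week array. Zbtb16, the gene of PLZF, a zinc finger repressor that holds spermatogonia undifferentiated, read 1567 and 1584 at 2 weeks and 1999 and 2045 at 3 weeks (0.36 ± 0.06, limma, adjusted p = 0.0033). It was higher at 3 weeks than in any other group. Upp1, a uridine phosphorylase, rose from 188 and 180.3 to 446 and 383 (1.16 ± 0.09). Utf1, a chromatin factor of stem cells, rose by 0.40 ± 0.08 in 13 of 14 settings. Neurog3, a factor of early progenitors, lay near the median signal and rose by 0.34 ± 0.11 in 7 of 14 settings. Mcam, a surface adhesion molecule, fell from 1928 and 1954 to 1206 and 1173 (-0.71 ± 0.07). Sall4 fell by 0.26 ± 0.08 in 8 of 14 settings, and its change was 0.02 after quantile normalization.

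The genes of differentiation had no common direction. Of 19 measured, 5 fell, 3 rose and 11 did not pass, and after quantile normalization 4 fell and 6 rose. With 1 of the 4 arrays left out, 3 or 4 fell and 1 or 2 rose (3 and 1 without the 1st 2 week array). Sohlh1, a helix-loop-helix factor of differentiating spermatogonia, rose from 258 and 264 to 410.5 and 348 (0.54 ± 0.11, 12 of 14 settings), whereas its partner Sohlh2 fell from 671 and 643 to 299.9 and 317 (-1.09 ± 0.08, limma, adjusted p = 9.8e-05). Kit, the receptor gene that marks differentiating spermatogonia, read 257 and 239 against 237 and 244, and these overlapping values did not pass. Stra8, the retinoic acid target at the entry to meiosis, rose by 0.42 ± 0.07 in the 13 settings that tested it, from 67.0 and 65.3 to 85.6 and 91.2, signals that stayed below the median of the arrays. Of the 6 retinoid receptor genes 2 rose, 3 fell and Rarb did not pass. Rarg rose from 141 and 149 to 231 and 213 (0.62 ± 0.10), Rara rose by 0.34 ± 0.07 in 13 of 14 settings, and Rxra fell by 0.34 ± 0.07 in 11 of 14. Rxrg, which was dim, fell by 0.43 ± 0.10 in 11 of 14 settings and Rxrb by 0.25 ± 0.07 in 9 of 14.

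Of 28 genes of meiotic prophase 4 rose and 2 fell, and of 22 piRNA pathway genes 4 rose and 1 fell, beside 24.2% changed and 7.71% higher among all genes. Of 26 spermatid genes 1 rose and 1 fell. The piRNA genes that rose were Piwil4, which directs the silencing of transposons in fetal germ cells, Tdrd1 in 12 of 14 settings, Fkbp6 in 9 and Piwil2 in 8. Piwil4 read 151 and 147 against 204 and 198 (0.43 ± 0.08). Dazl, an RNA-binding protein of germ cells, fell by 0.40 ± 0.10 in 9 of 14 settings, and the helicase gene Ddx4 did not pass (0.09 ± 0.11, limma, adjusted p = 0.56). After quantile normalization 8 piRNA pathway genes rose and 1 fell, against 7 and 0 after cyclic loess and 2 and 2 after median centring. With any 1 of the 4 arrays left out, 1 or 2 rose (1 without the 2nd 2 week array).

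Cd274, the gene of the immune checkpoint ligand PD-L1 that the title of the series names, read 288 and 275 at 2 weeks and 268 and 230 at 3 weeks. Its change of -0.18 ± 0.09 passed in 0 of 14 settings (limma, adjusted p = 0.17). Among 21 genes of checkpoint ligands and co-inhibitory surface proteins, 1 fell, 0 rose and 20 did not pass, and the member that fell was Tgfb1, a secreted growth factor (351 and 339 against 204 and 236, -0.65 ± 0.08). B2m, the light chain of MHC class I, fell from 1079 and 1202 to 489 and 649 (-1.01 ± 0.15). H2-K1, a heavy chain gene, did not pass (-0.19 ± 0.07). Psme1, a proteasome activator gene, fell by 0.24 ± 0.07 in 8 of 14 settings, while its change was 0.05 after quantile normalization and 0.03 after cyclic loess.

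Genes of fibroblasts and their matrix fell. On the fibroblast list 19 of 29 measured genes were lower and 0 higher, with a median of -0.43, and the falls numbered 15 after quantile normalization and 9 after cyclic loess. They numbered 11 and 12 without the 1st or the 2nd 2 week array and 14 without the 1st 3 week array. Lox, which crosslinks collagen, read 738 and 796 at 2 weeks and 191 and 287 at 3 weeks (-1.71 ± 0.17, limma, adjusted p = 0.00023). Thbs1, a matricellular protein, read 1383 on both 2 week arrays and 343 and 533 at 3 weeks (-1.69 ± 0.16). Tnc, which encodes tenascin C, fell from 880.4 and 970.3 to 264 and 351 (-1.60 ± 0.13). For each of them the 2nd 3 week array lay between the 1st and the 2 week arrays.

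The same order held for other genes of these cells. Dcn, the proteoglycan decorin, read 1749 and 1729 against 541 and 968, Sparc 1849 and 1881 against 732 and 1362, and Fn1, fibronectin, 2343 and 2363 against 1131 and 1352. Dcn and Fn1 fell by 1.27 ± 0.21 and 0.93 ± 0.11, and Sparc fell by 0.90 ± 0.22 in 10 of 14 settings. The collagen gene Col1a1 fell by 0.30 ± 0.09 in 8 of 14 settings, and Col3a1, Col5a1, Col6a1, Col6a2 and Col6a3 did not pass. All the genes named here with values had been far higher at 1 week, where Thbs1 averaged 10366 and Lox 7602, and Tnc read 9206 and 9368.

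The matrix proteases and their inhibitors fell in 11 of 21 cases, with 0 rises and a median of -0.44, against 13 and 11 falls and 1 rise after quantile normalization and cyclic loess. Mmp13, a collagenase, read 524 and 532 at 2 weeks and 111 and 118 at 3 weeks, the 2nd largest fall of all genes above the median signal (-2.20 ± 0.08, limma, adjusted p = 3.7e-06). Mmp3, a stromelysin, fell from 626 and 637 to 221 and 270.0 (-1.37 ± 0.10), and Timp2, a protease inhibitor, from 547 and 561 to 139 and 219 (-1.67 ± 0.19). On the list of inflammatory stroma, genes that tissue fibroblasts make under inflammatory signals, 10 of 20 fell and 0 rose, as after quantile normalization and cyclic loess. Lcn2, an iron-binding lipocalin, read 785 and 781 against 168 and 295 (-1.82 ± 0.20). Saa3, an acute phase protein, and Spp1, osteopontin, read 1576 and 1577 against 363 and 659, and 1960 and 1951 against 498 and 759. Ptgs2, the inducible cyclooxygenase, fell by 1.40 ± 0.12.

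Smooth muscle genes moved in part. Of 14 genes, 5 fell and 1 rose (3 and 0 without the 2nd 2 week array), and Acta2, smooth muscle actin, read 664 and 694 at 2 weeks against 213 and 429 at 3 weeks (-1.17 ± 0.25, 12 of 14 settings). The 1st 3 week array was the lower one again. Tpm1, a tropomyosin, fell by 1.03 ± 0.10. Myh11, Cnn1 and Tagln did not pass. On lists of other testis cell types 0 of 23 macrophage genes, 3 of 23 Sertoli cell genes, 2 of 16 endothelial genes, 2 of 12 Leydig cell genes and 1 of 17 lymphocyte genes passed, beside 24.2% of all genes. These lists were dim on average, with mean log2 signals of 6.01 to 6.92 on the 2 and 3 week arrays. Dim genes passed less often in general: of 2018 genes with a mean signal of 81.8 to 101.4, 228 rose and 33 fell. Whether these lists changed less than other genes of such signal was not tested. The Sertoli list genes that fell were Trf, transferrin (610.3 and 636 against 347 and 367), Ctsl and Tjp1, none of which is made by Sertoli cells alone.

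Adhesion genes fell in part. Of 21 integrin, cadherin and claudin genes 10 fell and 2 rose, with Cdh11, a mesenchymal cadherin, from 246 and 239 to 119 and 144 (-0.89 ± 0.11). Cdh2 and Cdh3, the N- and P-cadherin genes, fell by 0.85 ± 0.07 and 0.80 ± 0.08. The integrin gene Itgb5 fell by 0.79 ± 0.06, while Itga2 rose by 0.33 ± 0.08 in 12 of 14 settings.

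**Figure D3:**
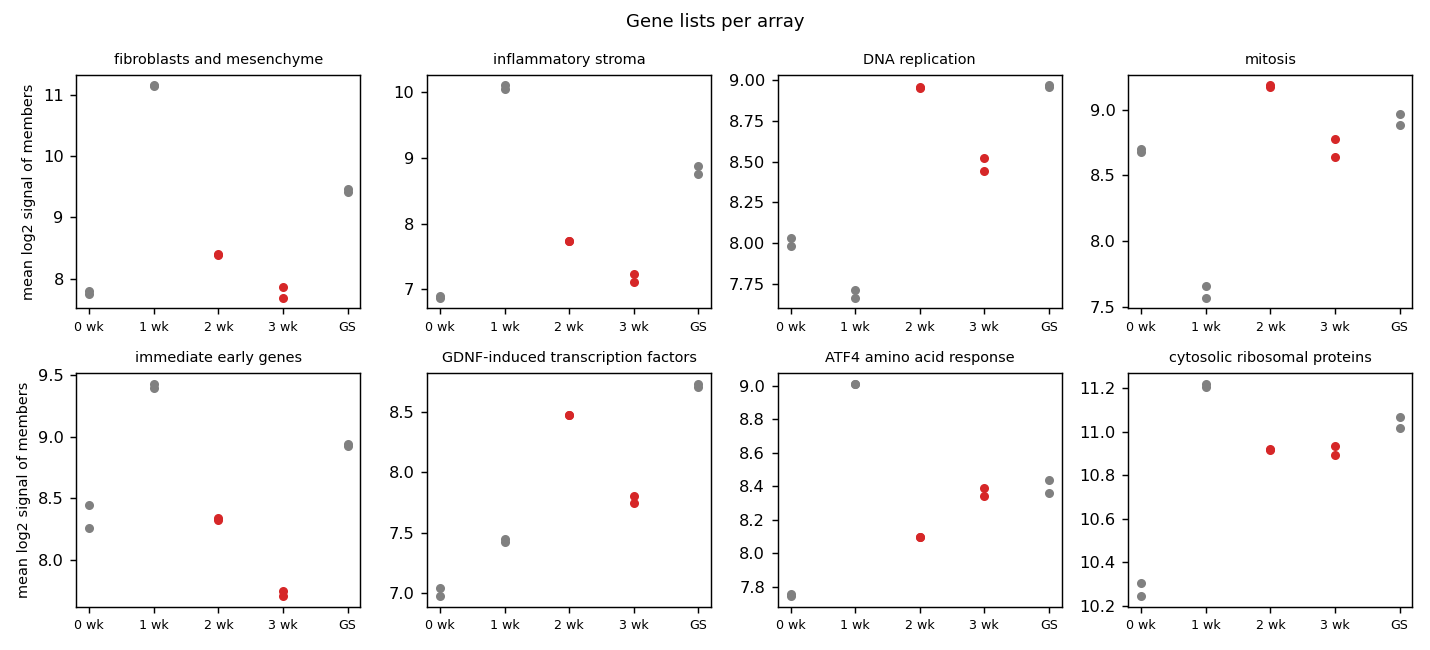
Mean log2 signal over the members of 8 gene lists on each of the 10 arrays, at 0, 1, 2 and 3 weeks and in GS cells, with the 2 and 3 week arrays in red; the axes do not start at 0. The lists of fibroblasts, inflammatory stroma, immediate early genes and the amino acid response are highest at 1 week, those of replication and mitosis are lowest there, and at 3 weeks only the amino acid response list stands clear above 2 weeks.

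DNA replication and mitosis genes were lower at 3 weeks. Of 33 replication genes 28 fell and 0 rose, with a median of -0.42, and of 32 mitosis genes 26 fell and 0 rose, with a median of -0.48. These genes are bright, and the falls numbered 16 and 11 after quantile normalization and 16 and 10 after cyclic loess, with medians from -0.23 to -0.18. Without the 1st 3 week array 21 and 15 fell, and without a 2 week array 20 or 21 and 14. Rrm2, a subunit of ribonucleotide reductase, read 284 and 273 at 2 weeks and 128 and 148 at 3 weeks (-1.02 ± 0.08, limma, adjusted p = 0.00013). Prim1, the catalytic primase subunit, fell from 252 and 264 to 129.9 and 127 (-1.0 ± 0.09). The replicative helicase genes Mcm2 and Mcm4 fell by 0.59 ± 0.08 and 0.71 ± 0.10, and Pcna, the sliding clamp, by 0.52 ± 0.09.

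Mki67, the proliferation marker Ki-67, read 1180 and 1167 against 507 and 629 (-1.06 ± 0.12). Top2a, topoisomerase II alpha, fell from 1084 and 1079 to 492 and 633 (-0.95 ± 0.16), and Kif11, a spindle motor, from 680.2 and 694 to 323 and 400.1 (-0.93 ± 0.14). Ccna2, cyclin A2, fell by 0.88 ± 0.09. Levels at 3 weeks stayed above those at 1 week for these genes, where Mki67 had averaged 272, Top2a 278 and Mcm2 364.

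Among G1 regulators 8 of 19 fell and 1 rose. Ccnd2, the D-type cyclin of spermatogonia, read 2500.4 and 2571 against 1256 and 1381 (-0.94 ± 0.07, limma, adjusted p = 9.8e-05), and its partner kinase gene Cdk4 fell by 0.52 ± 0.07. Cdkn1a, the p53 target p21 that inhibits cyclin-dependent kinases, also fell, from 970.2 and 957 to 403 and 500.5 (-1.10 ± 0.10). Cdk6 rose by 0.43 ± 0.08 in 13 of 14 settings. Further p53 targets that fell were Ccng1 (1349 and 1292 against 567 and 776, -0.99 ± 0.18) and Btg2 (-0.72 ± 0.08), with 7 falls and 1 rise among 22 targets. After quantile normalization or cyclic loess 4 of these fell and 3 rose, and 4 fell without the 1st 2 week array.

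Histone and chromatin genes fell in part. Of 12 histone genes measured 7 fell and 1 rose, led by H2bc4 (704 and 625 against 230.4 and 370.0, -1.18 ± 0.25, 12 of 14 settings) and the testis histone gene H2bc1 (-0.93 ± 0.12). Among 28 histone-modifying enzymes 11 fell and 1 rose, and 5 fell and 3 rose after either scaling, with medians of -0.21 as deposited and 0.04 and 0.02 after scaling. Without the 1st 2 week or the 1st 3 week array 6 fell, and without the 2nd 2 week array 7. Ezh2, the methyltransferase of Polycomb complex 2, fell from 969 and 981 to 506 and 589 (-0.84 ± 0.10), and Rnf2, the ubiquitin ligase of Polycomb complex 1, from 475 and 509 to 209 and 285 (-1.01 ± 0.14). Uhrf1, which recruits the maintenance methyltransferase to replicating DNA, fell from 907 and 798 to 439 and 468 (-0.91 ± 0.08), and that methyltransferase, Dnmt1, fell by 0.55 ± 0.08. Tet3, which oxidises methylcytosine, rose by 0.41 ± 0.07.

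Imprinted genes fell in 8 of 20 cases and rose in 0, against 6 and 2 after quantile normalization and 4 and 1 after cyclic loess, and 5 fell with any 1 of the 4 arrays left out. Igf2, a paternally expressed growth factor, read 1179 and 1164 at 2 weeks and 479 and 487 at 3 weeks (-1.28 ± 0.07, limma, adjusted p = 2.6e-05). H19, the maternally expressed RNA beside it, fell from 1227 and 1210 to 760 and 773 (-0.67 ± 0.12, 13 of 14 settings). Both had peaked at 1 week, where Igf2 averaged 3261 and H19 4769.

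Lipid synthesis genes were lower. Of 25 genes of cholesterol synthesis and uptake 15 fell and 0 rose, with a median of -0.33, and 9 fell and 2 rose after quantile normalization, against 8 and 1 after cyclic loess. Without either 2 week array 9 fell. Sqle, squalene epoxidase, read 745 and 739 against 470.0 and 455 (-0.68 ± 0.06). Fatty acid synthesis genes fell in 10 of 13 cases and rose in 1, and 6 fell after either scaling and without the 1st 2 week array. The desaturase genes Scd1 and Scd2 fell by 1.31 ± 0.12 and 0.97 ± 0.08, while Acly, ATP citrate lyase, rose by 0.22 ± 0.06 in 9 of 14 settings.

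Oxidative phosphorylation genes fell in 26 of 48 cases and rose in 0, with a median of -0.27, the same as the median change of the brightest bin of all genes. After scaling the falls numbered 7 and 6, with medians of -0.07 and -0.06, and they numbered 8 without the 1st 2 week array, 10 without the 2nd and 11 without the 1st 3 week array. The complex I subunit gene Ndufb8 fell from 405 and 363 to 214 and 207 (-0.86 ± 0.09, limma, adjusted p = 0.00028). Of the ribosomal protein genes, a brighter class, 0 of 36 passed with the deposited scaling, and their median was -0.00. After quantile normalization 8 of them rose and after cyclic loess 12, so their direction depended on the scaling. Glycolysis genes had 3 rises and 3 falls among 21, with Eno1, an enolase, at 0.36 ± 0.10 (10 of 14 settings) and Slc2a3, a glucose transporter, at -0.68 ± 0.07. After quantile normalization 7 glycolysis genes rose and 1 fell, whereas 0 rose without the 1st 2 week array, 1 without the 2nd 2 week or the 2nd 3 week array and 2 without the 1st 3 week array.

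Most changed genes of protein folding and redox control were lower, with single members higher. Of 19 genes of the endoplasmic reticulum unfolded protein response 13 fell and 1 rose, with 5 and 3 falls after quantile normalization and cyclic loess and 8 without either 2 week array. Edem1, which routes misfolded glycoproteins to degradation, read 436 and 434 against 207 and 213 (-1.05 ± 0.10, limma, adjusted p = 0.00023), and Hspa5, the chaperone BiP, fell by 0.51 ± 0.07. Herpud1, a membrane protein of the same degradation route, was the member that rose, from 258 and 226 to 463 and 481 (0.97 ± 0.09). Of 14 heat shock genes 7 fell and 1 rose, and 2 fell after either scaling, 3 without either 2 week array and 4 without the 1st 3 week array. Redox genes of the NRF2 response fell in 13 of 23 cases, and 9 and 8 fell after scaling, with Gsta4, a glutathione transferase, from 416 and 419 to 174 and 177 (-1.25 ± 0.06).

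The amino acid response was the list with the largest positive median, 0.23. It holds targets of ATF4, a transcription factor whose translation increases when amino acids are short or the endoplasmic reticulum is stressed, and which raises genes of amino acid synthesis and import. Of 24 measured members 11 rose, 1 fell and 12 did not pass, against 7.71% of all genes higher, and the rises numbered 14 after quantile normalization and 13 after cyclic loess. They numbered 7 after median centring and without the 1st 2 week or the 2nd 3 week array, and 6 without the 2nd 2 week array. The medians after quantile normalization and cyclic loess were both 0.38.

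The regulatory sequence behind this response is the composite element that ATF4 binds with a CCAAT/enhancer-binding protein. The windows below span 250 bases before to 50 after the annotated start site, 300 in all, of the 4 members that rose and hold the core of that element, and are shown so that its place can be read. They come from RefSeq, build GRCm38.p6, and are written 5′ to 3′ along the gene's strand. The motif searched was TGATGNAA on either strand, no other motif was searched, and capitals mark its matches. Asns lies at chr6:7693160-7693459 on the minus strand, Chac1 at chr2:119350992-119351291 on the plus strand, Trib3 at chr2:152344011-152344310 on the minus strand and Slc7a11 at chr3:50443564-50443863 on the minus strand.
Asns: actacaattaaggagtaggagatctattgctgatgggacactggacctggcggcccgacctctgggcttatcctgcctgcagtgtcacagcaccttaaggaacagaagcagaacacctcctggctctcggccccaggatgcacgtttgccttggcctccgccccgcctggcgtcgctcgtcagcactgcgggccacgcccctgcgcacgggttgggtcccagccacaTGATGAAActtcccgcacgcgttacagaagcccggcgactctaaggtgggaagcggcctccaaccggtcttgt
Chac1: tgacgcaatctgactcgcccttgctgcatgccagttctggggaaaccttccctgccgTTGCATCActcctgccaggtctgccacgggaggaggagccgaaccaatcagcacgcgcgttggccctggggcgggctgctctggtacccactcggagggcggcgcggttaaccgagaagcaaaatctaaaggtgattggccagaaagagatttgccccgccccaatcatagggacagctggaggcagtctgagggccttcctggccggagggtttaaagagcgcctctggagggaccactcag
Trib3: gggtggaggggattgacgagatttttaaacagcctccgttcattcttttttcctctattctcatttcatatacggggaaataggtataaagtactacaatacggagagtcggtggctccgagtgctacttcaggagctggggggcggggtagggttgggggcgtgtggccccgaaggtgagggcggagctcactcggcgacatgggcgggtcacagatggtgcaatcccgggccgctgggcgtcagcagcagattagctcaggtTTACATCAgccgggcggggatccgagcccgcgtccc
Slc7a11: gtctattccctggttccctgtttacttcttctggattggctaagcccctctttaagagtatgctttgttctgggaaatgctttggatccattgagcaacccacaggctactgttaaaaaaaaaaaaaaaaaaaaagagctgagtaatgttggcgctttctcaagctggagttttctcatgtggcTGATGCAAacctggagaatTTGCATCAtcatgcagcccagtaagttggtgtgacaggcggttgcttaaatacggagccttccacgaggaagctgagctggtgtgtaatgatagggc
The match began 23 bases upstream of the start site in Asns, 193 upstream in Chac1, 14 downstream in Trib3, and 66 and 47 upstream in Slc7a11, which held 2. The motif stood in 1304 of all 32851 promoter windows (3.97%) and in 1219 of 27025 genes (4.51%). Of the 21 list members with a window it was in 8 (38.1%), namely in 4 of the 10 that rose and in 4 of the 10 that did not pass, the same share in both. A match is a description of the letters and no evidence of binding in these cells.

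Chac1, which degrades glutathione, read 146 and 138 at 2 weeks and 337 and 409 at 3 weeks. It showed the largest rise of all genes above the median signal (1.39 ± 0.13, limma, adjusted p = 0.00019). Asns, asparagine synthetase, read 960.2 and 924 against 1676 and 1772 (0.87 ± 0.08, limma, adjusted p = 0.00021), and Psat1, an enzyme of serine synthesis, 271 and 268 against 445 and 542 (0.87 ± 0.12). Both genes' groups were well apart. The cationic amino acid transporter genes rose too, Slc7a3 from 74.6 and 86.7 to 162 and 154 (0.97 ± 0.15) and Slc7a1 from 559 and 541 to 764 and 822 (0.53 ± 0.09). Trib3, a pseudokinase that damps the response, read 119 and 131 against 209.7 and 169 (0.59 ± 0.12, 12 of 14 settings).

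Slc7a11, the cystine transporter subunit, was dim at 67.2 and 61.4 against 78.9 and 97.5 and passed in 9 of 14 settings (0.45 ± 0.10). The remaining rises were small: Cebpg (0.34 ± 0.07, 13 of 14), Atf4 itself (0.30 ± 0.09, 10 of 14), Mthfd2, a mitochondrial folate enzyme (0.29 ± 0.08, 9 of 14), and Aldh18a1, an enzyme of proline synthesis (0.24 ± 0.08, 8 of 14). The member that fell was Ddr2, a collagen receptor kinase of mesenchymal cells, from 269 and 269.5 to 144 and 173 (-0.77 ± 0.09). Slc7a5, Slc3a2, Phgdh, Psph, Shmt2, Cth, Pycr1, Atf3, Cebpb, Nupr1, Sesn2 and Vldlr did not pass. Of 18 aminoacyl-tRNA synthetase genes, further targets in part, 4 rose (Yars, Nars, Cars and Iars) and 4 fell (Dars, Hars, Qars and Kars), each in 7 to 13 of 14 settings, and after quantile normalization 9 rose and 0 fell. Without the 1st 2 week array 0 rose and 2 fell, without the 2nd 2 rose and 1 fell, without the 1st 3 week array 5 rose and 2 fell, and without the 2nd 2 rose and 4 fell.

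**Figure D4:**
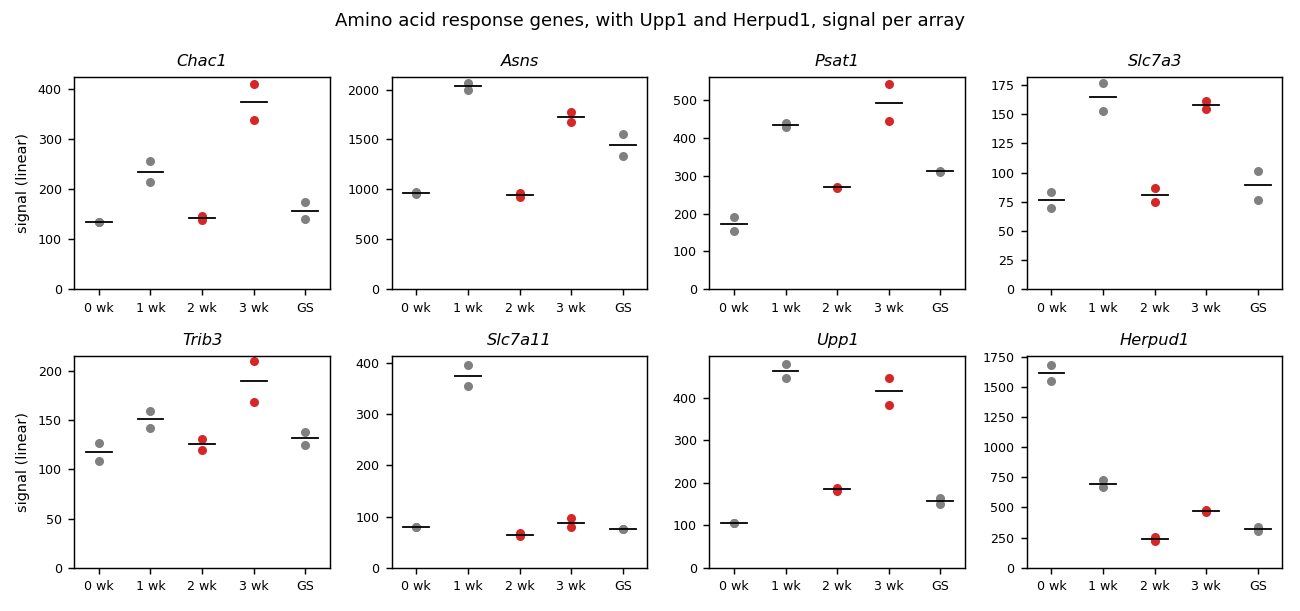
Signal on each of the 10 arrays (points) with the group mean (line) for 6 members of the amino acid response list and for Upp1 and Herpud1, at 0, 1, 2 and 3 weeks and in GS cells. In every panel both 3 week points lie above both 2 week points, and the 1 week points of Asns, Slc7a11 and Upp1 lie above the lower 3 week point.

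Averaged over its members, the amino acid response list had been higher at 1 week than at 3 weeks, though not every member was. Its mean log2 signal was 9.01 on both 1 week arrays and 8.34 and 8.39 on the 3 week arrays. Asns averaged 2034 at 1 week, 942 at 2 weeks, 1724 at 3 weeks and 1447 in GS cells, and Slc7a11 averaged 375 at 1 week against 88.2 at 3 weeks. Chac1 and Trib3 were instead highest at 3 weeks.

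Other signalling genes changed singly. The list counts stand beside 24.2% changed, 16.5% lower and 7.71% higher among all genes. The changed shares of the WNT and interferon lists were near that of all genes. Id1, an inhibitor of differentiation induced by BMP signals, read 196 and 194 against 371 and 359.7 (0.91 ± 0.06, limma, adjusted p = 5.8e-05), while Id3 fell by 0.45 ± 0.09 in 12 of 14 settings and Smad6, an inhibitory SMAD, fell from 431 and 355 to 200.5 and 189.7 (-1.0 ± 0.09). Smad3, a TGF-beta effector, rose by 0.52 ± 0.09. Of 31 genes on the TGF-beta and BMP list 8 fell and 4 rose, with 5 and 4 falls after quantile normalization and cyclic loess and 5 without either 2 week array. In the WNT list 6 of 25 fell and 0 rose (3 and 2 after cyclic loess, and 3 falls without either 2 week or the 1st 3 week array), with Lrp5, a co-receptor, at -0.91 ± 0.07 and Ctnnb1, beta-catenin, at -0.49 ± 0.08. Oasl2, an interferon-stimulated gene, rose from 246 and 235 to 469 and 382 (0.82 ± 0.10), and Ifitm3, a membrane protein on the same list, fell from 811 and 773 to 253 and 409.6 (-1.30 ± 0.20). On that list 6 of 34 rose and 1 fell, and 1 rose without the 1st 2 week array and 3 without the 2nd or after median centring. The hypoxia list held Bnip3, a mitophagy receptor, which rose from 234 and 216 to 408 and 479 (0.97 ± 0.14), and Ddit4, an inhibitor of mTOR complex 1, which rose by 0.55 ± 0.09, among 3 rises and 4 falls in 20 genes. After quantile normalization 7 of these rose and 3 fell, and with any 1 of the 4 arrays left out 2 fell.

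Beyond the lists, the largest fall was that of Mpzl2, an epithelial adhesion protein, from 688 and 648 to 117 and 157 (-2.31 ± 0.15, limma, adjusted p = 5.3e-05). Emb, embigin, which accompanies monocarboxylate transporters, fell from 817 and 786 to 167 and 186 (-2.18 ± 0.15). Across the 14 settings its change ran from -2.26 to -1.12. Nid1, a basement membrane linker, fell from 1056 and 1029 to 255 and 266 (-2.0 ± 0.10). In GS cells Mpzl2 averaged 1592 and Nid1 1466, above their levels in both weeks. Cd63, a tetraspanin of late endosomes, fell by 1.75 ± 0.19 and Ptprg, a receptor phosphatase, by 1.70 ± 0.14. The 2 H/ACA small nucleolar RNAs Snora44 and Snora61 were lower too (-1.65 ± 0.11 and -1.64 ± 0.12). Of 23 such RNAs, a family looked at after its values were seen, 8 fell and 1 rose, beside 16.5% and 7.71% of all genes. After quantile normalization 9 fell and 3 rose, and after cyclic loess 6 and 2. The family's median signal overlapped between the weeks, at 244 and 283 against 169 and 245, and the 2nd array read higher in every group.

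Among the 15 largest rises above the median signal were 5 loci that the array names only as LOC100039147, LOC100040223, LOC100040235, LOC100046275 and LOC100504530, 2 uncharacterised transcripts, and Snord115, whose signal is shared with another transcript cluster. LOC100039147 read 1042 and 1062 against 2202 and 2214 (1.07 ± 0.22, 13 of 14 settings). Zfp420 and Olfr64 were dim at 2 weeks and rose by 0.99 ± 0.17 and 1.00 ± 0.12. The rise of Olfr64 was shared by its family, since 578 of 1039 olfactory receptor genes rose. Genes singled out after their values were seen include Fbxo32, a ubiquitin ligase induced in muscle wasting (394 and 372 against 693 and 770.0, 0.93 ± 0.09), Ciart, a repressor of the circadian clock (743 and 661 against 1340 and 1330, 0.93 ± 0.08), Erg, an ETS factor (345 and 369 against 617 and 664, 0.84 ± 0.10), and Ptch1, the Hedgehog receptor (252 and 245 against 454 and 405, 0.79 ± 0.10). All 4 were higher on each 3 week array than on either 2 week array, as was every gene that passed and rose.

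**Figure D5:**
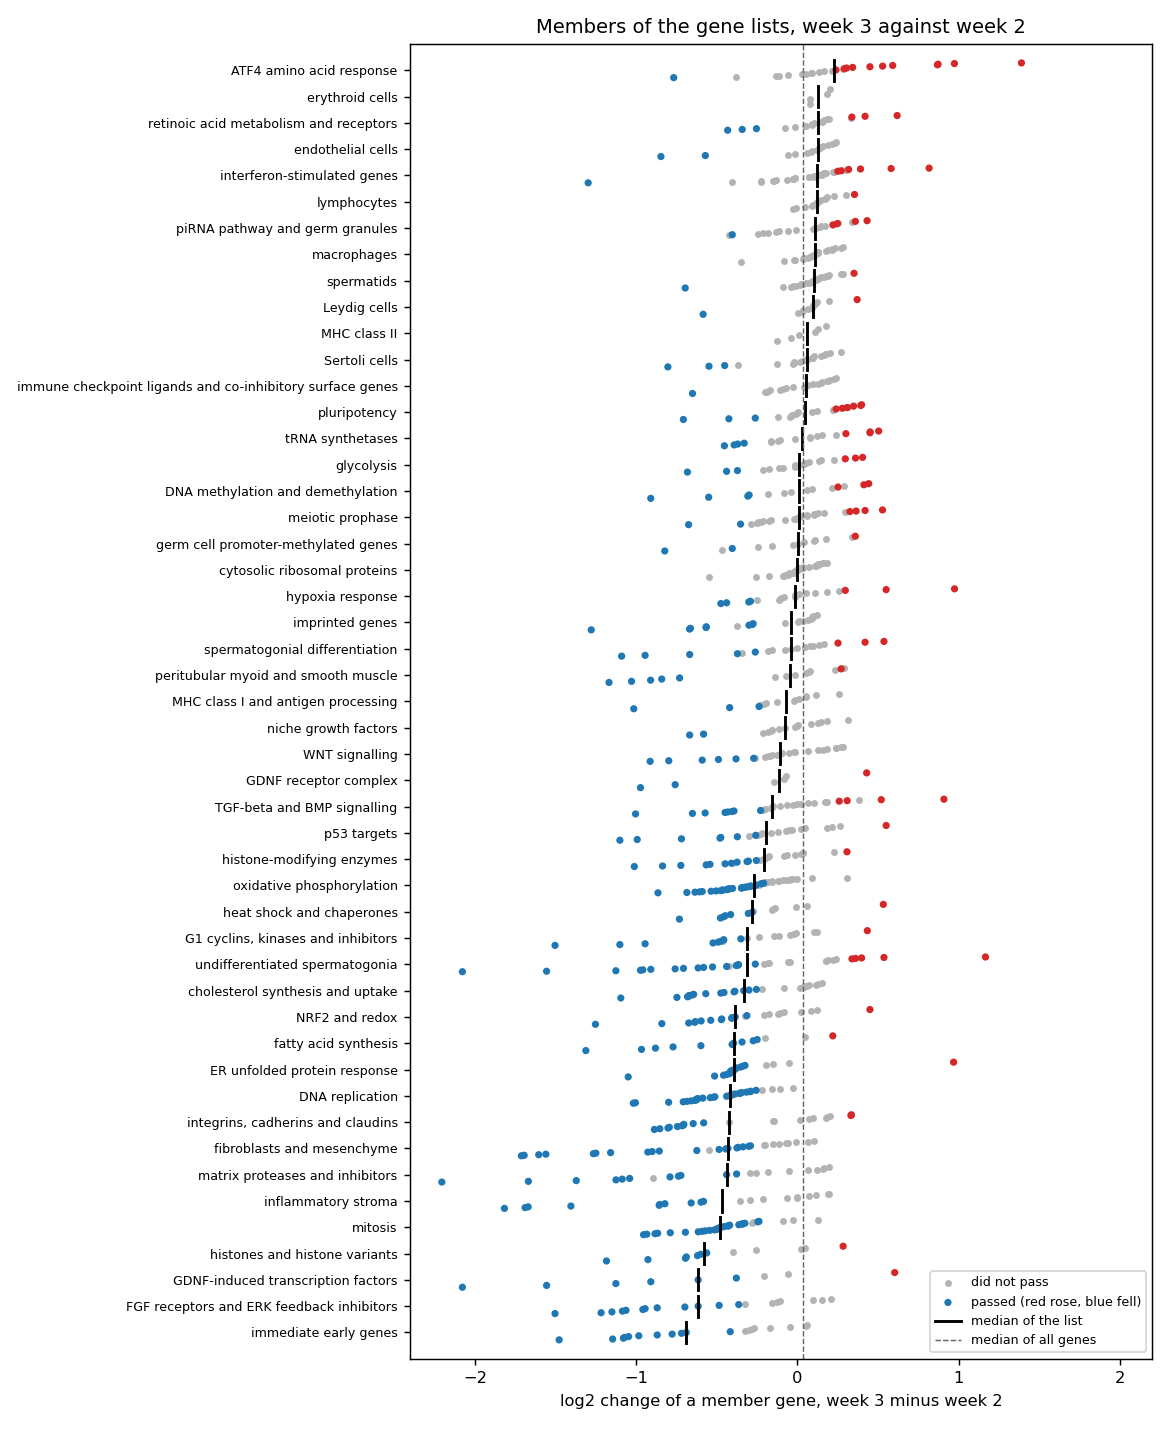
Change from 2 to 3 weeks (log2) of every measured member of the 49 gene lists, with members that rose in red, that fell in blue and that did not pass in grey, the median of each list as a black bar and the median of all genes, 0.03, as a dashed line. The lists run from the amino acid response, with a median of 0.23, to the immediate early genes, with a median of -0.69.

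Genes that fell in the third week had often risen in the first, a comparison of other arrays. Both comparisons share 1 variance estimate per gene from all 10 arrays, so the lists of passed genes are not independent. Of the 3320 genes lower at 3 than at 2 weeks, 1931 (58.2%) had risen from 0 to 1 week, against 30.3% of all genes, and they were 31.6% of the 6113 genes that rose then. A further 800 (24.1%) had fallen in the first week, when 27.5% of all genes fell. Of the 1555 genes higher at 3 weeks 838 (53.9%) had fallen in the first week and 148 (9.52%) had risen. Among the 132 genes that fell at least 2-fold, 111 (84.1%) had risen in the first week. Their median signal was 212 at 0, 886 at 1, 556 at 2 and 233 at 3 weeks and 804 in GS cells. The share was not tested, and bright genes are frequent among the falls and dim genes among the rises.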

How the data were processed

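The authors deposited linear array intensity values for 28856 transcript clusters of the Affymetrix Mouse Gene 1.0 ST array, annotated by release na32 against mm9 (per the file headers). How background was corrected and arrays were normalized is not given in the sources used here. RNA came from TRIzol and RNeasy and carried biotin, per the labels. The authors' deposited workbook also gives a mean intensity at 0 and 3 weeks and their fold ratio, used here only to check the assignment of arrays.

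A floor of 1 preceded the log2 step. Clusters with 1 gene symbol (22439) entered the tests, symbols were updated through RefSeq (GRCm38.p6, names only), and the brightest cluster stood for each of 20174 genes. Of 20200 symbols, 17440 were current, 2024 were replaced through a synonym and 736 kept. The means of all 5 groups were modelled by lmFit and eBayes of limma 3.58.1 under R 4.3.3, with 5 residual and 4.39 prior degrees of freedom, and p-values were adjusted by Benjamini-Hochberg over all genes. All adjusted p-values printed are those of this limma contrast. The same code was tested on simulated data.

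Named genes are a panel of 24, the 15 largest rises and falls that passed without overlap and with a mean above the median signal at 2 or 3 weeks, and per list up to 4 members in each direction. Members listed by name only complete a list. Some genes within the naming rule are not reported here. Fbxo32, Ciart, Erg, Ptch1, Mki67, Fosb, Dusp6, Egr1, Trib3, Slc7a1, Atf4, Cebpg, Mthfd2, Aldh18a1, Dcn, Fn1, Sparc, Pcna, Neurog3, Mcam and H2-K1 were chosen after their values were seen. The comparison, the 49 lists and the panel were chosen with earlier results of these data known, so their direction is no independent support.

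Alternatives were quantile, median and cyclic loess scaling, only genes above the median signal in any of the 5 groups, the average cluster, log2(signal + 16), trended robust variances, only the 4 arrays compared, a replicate block and leaving out each array.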

Additional observations from a re-analysis of the deposited data

How the results depend on the processing

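Of 232 named genes that passed, 142 passed under every alternative and 176 under every scaling. Against 4875 changed genes (1555 higher, 3320 lower; 11 and 132 at least 2-fold), cyclic loess gave 2834, with 1281 lower and 23 and 56 at least 2-fold. Quantile normalization gave 1926 lower and 42 and 85 at least 2-fold. Among only the 12777 genes whose mean was above the median signal in at least 1 of the 5 groups, 771 were higher and 3425 lower. The counts without overlap were 771 higher and 3425 lower with that filter. They were 1888 higher and 1926 lower with quantile normalization, and 1553 higher and 1281 lower with cyclic loess. That filter left out genes dim in every group, and 996 of the 1555 rises lay in the 4 dimmest bins of genes by signal. The cause of the differences between settings was not tested.

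Leaving out 1 array gave 1918 to 4587 changed genes, 504 to 1528 higher and 1414 to 3059 lower, with the same numbers without overlap, 8 to 14 and 89 to 186 at least 2-fold, and 231 to 361 of the list members against 381. The lowest count of changed genes came without the 1st 2 week array; without the 2nd it was 2068 and without the 1st 3 week array 2653. An arm left with 1 array was assumed to vary like the other groups. Sall4 reversed after quantile normalization (0.0195), and Psme1 after quantile normalization (0.0466) and cyclic loess (0.0272).

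Same-numbered arrays of the 2 groups compared deviated from their group means with r = -0.07, which gives no pairing of 2 with 3 weeks. The 2 week arrays correlated with the other groups at -0.06 to -0.02, whereas the 6 pairs among 0, 1 and 3 weeks and GS cells had r = 0.31 to 0.58, so there same-numbered arrays deviated together. The labels name no shared source. With the replicate block 6695 genes changed, 2557 higher (2551 without overlap). The files carry no background level, so which dim genes lay above it was not assessed.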

Other observations

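Olfactory receptor genes, a family looked at after its values were seen, rose together at low signal. Of 1039 such genes 578 rose and 1 fell, with a median change of 0.31, against 0.02 for the 18961 genes outside the olfactory and vomeronasal families, of which 913 rose. Their median signal was 65.4 and 65.1 on the 2 week arrays and 81.7 and 82.9 on the 3 week arrays, at 2 weeks at the lower quartile of the arrays, and 55.5 and 54.2 in GS cells. After quantile normalization 420 rose with a median of 0.23 and after cyclic loess 348 with a median of 0.21. Vomeronasal receptor genes rose in 64 of 174 cases, with a median of 0.20. These genes share high sequence similarity within each family, and none is named here as expressed.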
